A study of Caenorhabditis elegans with 2 samples.

Results

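The RNAs described here are made by RNA polymerase III from single genes of Caenorhabditis elegans. They are the RNase P RNA (rpr-1), the RNase MRP RNA (mrpr-1) and the Y RNA (yrn-1). The genes were taken by name from the RefSeq annotation of the WBcel235 assembly (ce11), and no measured value enters that rule. They are 3 of the 658 nuclear RNA polymerase III genes counted here and of 46890 nuclear genes in all. That count covers these genes and the annotated tRNA, U6 snRNA, signal recognition particle RNA and 5S rRNA genes, and no other class. RPC-1, which forms the catalytic core of RNA polymerase III as its largest subunit, had a peak at all 3 genes in each of the 4 peak lists used. In the shortest list 88.7% of the other RNA polymerase III genes and 5.16% of all nuclear genes had one. In the longer lists 29.5 to 35.7% of all nuclear genes did. The peaks at the 3 genes were of unequal strength: rpr-1 had the strongest, mrpr-1 an intermediate one and yrn-1 the weakest, in both replicates.

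RNase P is the ribonucleoprotein that removes the 5′ leader of precursor tRNAs, and RNase MRP is a related ribonucleoprotein that shares most of its proteins and cuts precursor ribosomal RNA. Y RNAs are short RNAs bound by the Ro60 protein, which takes part in the quality control of small RNAs. In vertebrates the genes of these RNAs, like those of U6 snRNA, are read from promoters that lie upstream of the transcribed sequence, with a proximal sequence element and a TATA box. The genes of tRNAs are instead read from internal promoters, the A and B boxes, and RNA polymerase III ends its transcripts at a run of T in the gene's sense strand.

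The measurement was chromatin immunoprecipitation followed by sequencing. The description in the labels gives an antibody against GFP, while the antibody field reads rpc-1, the tagged protein. All animals were young adult hermaphrodites of strain JK1107, which carries glp-1(q224) III, a temperature-sensitive allele that affects the germ line, and a transgene for RPC-1 with GFP and FLAG at its C terminus. The animals' age, growth temperature, and the promoter and copy number of the transgene are not given in the labels. There was 1 group with 2 samples, biological replicates 1 and 3, from separate biosamples of whole animals, so cell types cannot be told apart. Replicate 1 was sonicated in a Bioruptor and replicate 3 by microtip, and the method cannot be told apart from the replicate.

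The sequences upstream of the genes are shown because mrpr-1, yrn-1 and 12 of the 22 U6 genes, 6 of them bound, share words there at like distances. Each line gives the 80 bases that end just before the annotated 5′ end, 5′ to 3′ on the gene's strand, from the RefSeq WBcel235 genome. The first capitals, in 2 blocks, mark AAC, then 8 bases, then TGTC, and the last capitals mark the TATA stretch. The line of mrpr-1 is chrII:7200153-7200232 and that of yrn-1 is chrIV:7499428-7499507, both on the plus strand. The 3 U6 genes below them are those with the highest signals among U6 genes that hold both words: W05B2.8 (chrIII:10989599-10989678, plus strand), F54D8.7 (chrIII:5080899-5080978, minus strand) and Y9C9A.111 (chrIV:4930874-4930953, plus strand). The last line is srpr-1.1 (chrIII:4379207-4379286, minus strand), a gene of the signal recognition particle RNA, which lacks the first word.
mrpr-1: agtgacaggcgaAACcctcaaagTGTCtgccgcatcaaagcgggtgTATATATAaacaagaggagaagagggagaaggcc
yrn-1: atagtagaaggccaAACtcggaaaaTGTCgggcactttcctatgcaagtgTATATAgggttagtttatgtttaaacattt
W05B2.8: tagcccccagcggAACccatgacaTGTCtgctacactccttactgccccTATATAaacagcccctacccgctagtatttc
F54D8.7: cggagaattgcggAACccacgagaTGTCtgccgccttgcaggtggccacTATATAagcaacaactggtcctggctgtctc
Y9C9A.111: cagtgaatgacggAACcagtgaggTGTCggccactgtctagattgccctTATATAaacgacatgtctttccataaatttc
srpr-1.1: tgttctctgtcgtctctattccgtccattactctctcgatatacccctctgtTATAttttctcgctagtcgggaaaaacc

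The transcribed sequences of mrpr-1 (chrII:7200233-7200433) and yrn-1 (chrIV:7499508-7499627) follow, each with 15 bases past the annotated 3′ end. Both are on the plus strand and from the same genome. Capitals mark runs of at least 4 T and, in yrn-1, the single exact match to the B-box-like word GTTCNANNC.
mrpr-1: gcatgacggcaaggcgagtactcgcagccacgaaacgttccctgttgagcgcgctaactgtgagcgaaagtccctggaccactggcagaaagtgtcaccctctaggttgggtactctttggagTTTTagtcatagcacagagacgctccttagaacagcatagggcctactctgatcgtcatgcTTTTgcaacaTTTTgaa
yrn-1: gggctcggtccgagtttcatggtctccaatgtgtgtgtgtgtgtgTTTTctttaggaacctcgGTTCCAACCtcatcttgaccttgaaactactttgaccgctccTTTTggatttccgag

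The authors deposited 4 peak lists on ce11, and the whole series was read through them. The IDR list, of peaks whose ranks repeat between replicates (IDR, irreproducible discovery rate), holds 1860 peaks, the pooled list 30000, the list of replicate 1 29914 and that of replicate 3 30000. Signal is the authors' value of enrichment over a control alignment. Its scale differed between lists, with highest values of 24700 in the IDR and pooled lists, 20646.5 in replicate 1 and 4146 in replicate 3, so lists are related here by ranks. A gene counted as bound where a summit, the highest point of a peak, lay within 250 bp of its body. By that rule rpr-1, mrpr-1 and yrn-1 were bound in each list. Of all nuclear genes, 5.16% were bound in the IDR list, 30.7% in the pooled list, 29.5% in replicate 1 and 35.7% in replicate 3. Among nuclear genes of the same length range, 105 to 253 bp, that are not RNA polymerase III genes, 4.55% were bound in the IDR list, 30.9% in the pooled list, 30.4% in replicate 1 and 28.6% in replicate 3. Among the other 655 RNA polymerase III genes, 88.7% were bound in the IDR list. A count of 3 out of 3 is therefore near the share of that class. Read counts were not used here and depth is unknown.

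The gene of the RNase P RNA, rpr-1 (CELE_Y48G10A.7), is 253 bp long and lies at I:13463955-13464207 on the plus strand. It sits in a 2023-bp intron of ints-8, a protein-coding gene on the opposite strand for a subunit of the Integrator complex, and overlaps no exon of it. In the IDR list its peak held rank 126 with a signal of 4808.6, and the pooled list gave the same values. In replicate 1 the signal was 4022.5 and the rank 116, and in replicate 3 the signal was 992 and the rank 109. The peak thus stood among the top 6.77% of the IDR list and kept nearly the same rank in both replicates. The summit lay 53 bp from the first base of the gene in the IDR, pooled and replicate 1 lists and 51 bp from it in replicate 3, about 20.9% of the way along the gene. The interval ran from 144 bp upstream of the gene to 403 bp past its first base in the IDR list and was 548 bp wide, against 559 bp in replicate 1 and 523 bp in replicate 3.

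The gene of the RNase MRP RNA, mrpr-1 (CELE_E04F6.16), is 186 bp long and lies at II:7200233-7200418 on the plus strand, between genes. The peak had a signal of 2798.6 and rank 360 in the IDR and pooled lists. In replicate 1 the signal was 2238.5 and the rank 371, and in replicate 3 the signal was 601 and the rank 342. In rank it stood below rpr-1 and above yrn-1 in every list. The summit lay 110 bp into the gene in the IDR, pooled and replicate 1 lists and 128 bp into it in replicate 3, which is 59.1% and 68.8% of the way along. This was the most downstream summit of the 3 genes, whether counted in bases or as a share of the gene. The interval was 561 bp wide in the IDR list, 599 bp in replicate 1 and 521 bp in replicate 3.

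On its upstream side, E04F6.6, a protein-coding gene on the opposite strand, lies 667 bp from mrpr-1. Promoter windows here run from 500 bp upstream to 250 bp downstream of a protein-coding gene's 5′ end, and 2.97% of 19971 protein-coding genes held a summit there in the IDR list. E04F6.6 had a promoter peak in replicate 3, with a signal of 13.6 and rank 3710, and none in the other 3 lists. By position alone the peak cannot be assigned to mrpr-1 only.

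The gene of the Y RNA, yrn-1 (CELE_F55G1.16), is the shortest, 105 bp at IV:7499508-7499612 on the plus strand. It sits in a 281-bp intron of the protein-coding gene F55G1.15 on the opposite strand and is overlapped along its whole length by F55G1.20, a 225-bp non-coding RNA gene on that same opposite strand. Peaks carry no strand, so yrn-1 and F55G1.20 cannot be told apart by position. The yrn-1 peak had a signal of 1066.8 and rank 639 in the IDR and pooled lists. In replicate 1 the signal was 832 and the rank 649, and in replicate 3 the signal was 236 and the rank 634. The summit lay 27 bp into the gene in all 4 lists, 25.7% of the way along, so its position did not differ between the replicates by a single base.

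The width of the yrn-1 peak did differ. It was 445 bp in the IDR list and 455 bp in replicate 1, against 276 bp in replicate 3. Replicate 3 alone held a further peak beside it, with its summit 123 bp past the 3′ end of yrn-1, a width of 102 bp, a signal of 15.6 and rank 2585. Only 21 bases separated the 2 intervals of replicate 3, and both lay within the stretch of the single interval of replicate 1.

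**Figure D1:**
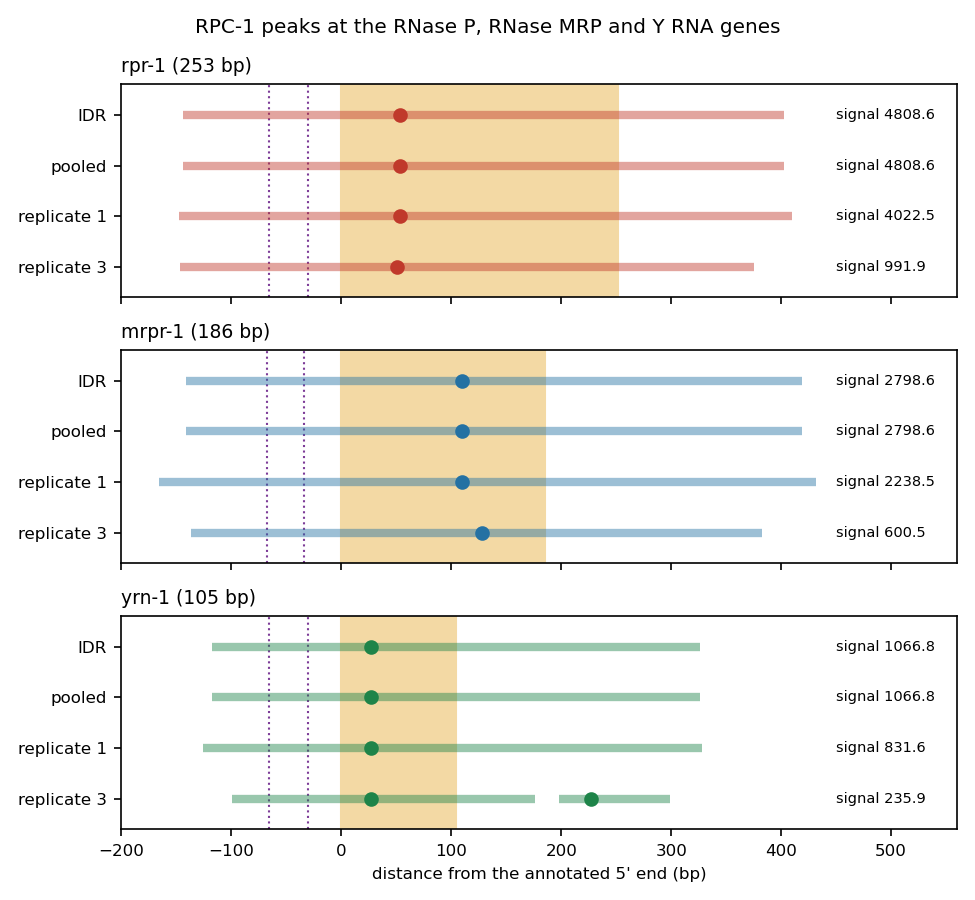
Peak intervals (bars) and summits (points) at rpr-1, mrpr-1 and yrn-1 in the 4 lists, by distance in bp from the annotated 5′ end, with the authors' signal at right. The shaded span is the gene and the dotted lines are the starts of the upstream words. All main summits lay inside the gene, at 53, 110 and 27 bp in the IDR list, and replicate 3 had an additional narrow peak downstream of yrn-1.

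All 3 intervals were longer downstream of the summit than upstream of it. In the IDR list the downstream arm was 350 bp and the upstream arm 197 bp at rpr-1. At mrpr-1 the arms were 309 bp downstream and 251 bp upstream, and at yrn-1 they were 299 bp and 145 bp. The order held in replicate 1 at each gene, but in replicate 3 the mrpr-1 arms were 255 bp downstream and 265 bp upstream, and its direction was thus not the same. Peaks of the commonest width, 244 bp, made up 25.5% of the IDR list, and the 3 IDR intervals were all wider than that. Among bound tRNA genes 23.2% had an IDR peak at least as wide as that of rpr-1, 21.9% one at least as wide as that of mrpr-1 and 51.5% one at least as wide as that of yrn-1. For yrn-1 this share depended on the library: it was 50.3% in replicate 1 and 82.3% in replicate 3, where the yrn-1 interval of 276 bp was narrower than the commonest width of that list, 310 bp.

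The signals of the 3 genes were set beside those of other RNA polymerase III genes, within each list. The signal of rpr-1 was 1.65 times the median of the bound tRNA genes in the IDR list, 1.73 times in replicate 1 and 1.76 times in replicate 3. For mrpr-1 the ratio was 0.961 in the IDR list, 0.965 in replicate 1 and 1.07 in replicate 3, so it changed side of 1 between the replicates and mrpr-1 stood at the middle of the tRNA genes. For yrn-1 the ratio was 0.366 in the IDR list, 0.358 in replicate 1 and 0.419 in replicate 3. The tRNA median in the IDR list was 2911, with 565 of 612 tRNA genes bound (92.3%, 95% Clopper-Pearson interval 89.9 to 94.3%, for counting error only). Of the bound tRNA genes, 15.8% had a higher IDR signal than rpr-1, 51.7% a higher one than mrpr-1 and 88.3% a higher one than yrn-1. A tRNA gene close to another can be counted through its neighbour's peak. The nearest other gene of the RNA polymerase III classes counted here was 132736 bp from rpr-1, 196888 bp from mrpr-1 and 155280 bp from yrn-1.

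Among all 584 bound RNA polymerase III genes rpr-1 ranked 92, mrpr-1 298 and yrn-1 509 in the IDR list. In replicate 1 these ranks were 84, 313 and 519 of 599, and in replicate 3 they were 75, 273 and 500 of 598. The order of the 3 genes was the same in both replicates, and the distance between neighbours in that order was larger than the shift of any of them between replicates. The rpr-1 signal was 4.51 times that of yrn-1 in the IDR list, 4.84 times in replicate 1 and 4.21 times in replicate 3. The mrpr-1 signal was 2.62, 2.69 and 2.55 times that of yrn-1 in those lists. With 2 samples of 1 group these are values with their range, and no test was made. Of the sequence around the genes, 97.6% of the 36-base words within 250 bp of rpr-1 occur once in the genome, and 100% of those around mrpr-1 and yrn-1, against medians of 90.5% at tRNA genes and 74.1% at the genes of the signal recognition particle RNA.

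**Figure D2:**
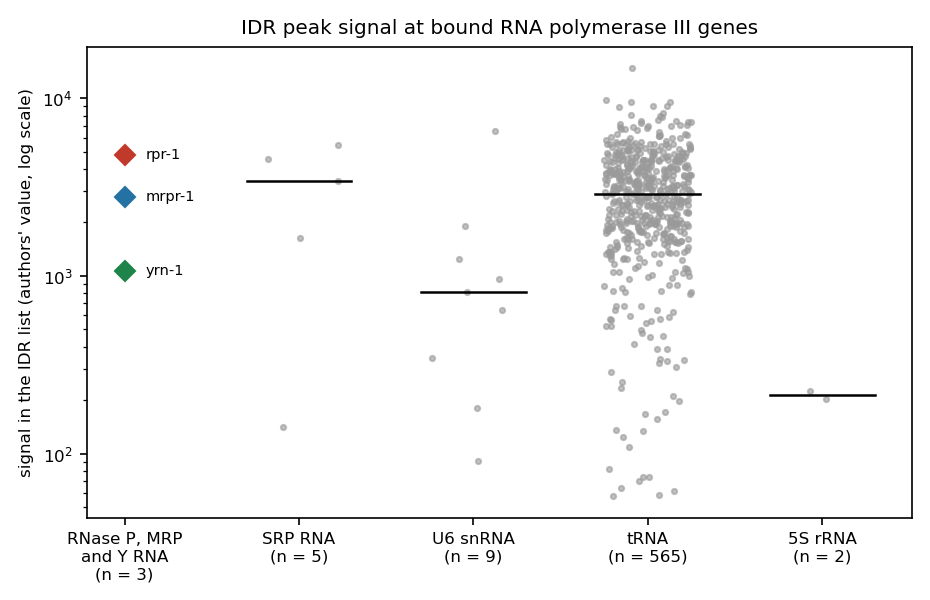
Signal in the IDR list (log scale) of each bound gene, by class, with n genes bound. Diamonds are rpr-1, mrpr-1 and yrn-1, grey points are other genes and lines are class medians. rpr-1 lies above the tRNA median of 2911, mrpr-1 just below it and yrn-1 well below it.

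A further class for comparison is that of the signal recognition particle RNA, the scaffold of the particle that targets secreted proteins to the endoplasmic reticulum. The IDR signals of rpr-1, mrpr-1 and yrn-1 lay within the range of its 5 genes, which were all bound. These signals were 5430 at srpr-1.1, 4543 at srpr-2.2, 3405.5 at srpr-2.1, 1645 at srpr-1.2 and 141 at srpr-3. Only srpr-1.1 exceeded rpr-1. Its IDR summit lay 443 bp from the first base of a 298-bp gene, and so past the annotated 3′ end. Between replicates the summit shifted by 2 bp at rpr-1, 18 bp at mrpr-1 and 0 bp at yrn-1. At the 5 srpr genes the shift was 3 bp at srpr-1.1, 5 bp at srpr-1.2, 52 bp at srpr-3, 87 bp at srpr-2.1 and 125 bp at srpr-2.2, so 3 of the 5 moved further than mrpr-1. Among 569 tRNA genes the median shift was 3 bp, and 131 genes moved by at least 18 bp.

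The IDR summits of rpr-1, mrpr-1 and yrn-1, at 53, 110 and 27 bp, lay further from the first base than those of most tRNA genes. Over 405 bound tRNA genes with no other RNA polymerase III gene within 500 bp, the median summit lay 12 bp from the first base (quartiles 10 and 19). As a share of gene length the position was 20.9% at rpr-1, 59.1% at mrpr-1 and 25.7% at yrn-1, against a median of 16.7% at these tRNA genes, which are shorter. The srpr summits had a median of 144 bp in the IDR list (quartiles 123 and 291) and of 249 bp in replicate 3. The 9 bound U6 summits had an IDR median of 95 bp with quartiles 10 and 96, so that median is no typical position. At U6 genes the median was 91 bp in replicate 1 and 12 bp in replicate 3.

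By signal, the rank in replicate 3 was 0.940 times that in replicate 1 at rpr-1, 0.922 times at mrpr-1 and 0.977 times at yrn-1. At the 5 srpr genes these ratios were 0.522, 0.667, 0.691, 0.985 and 1.004, and the median over 569 tRNA genes was 1.03, so ratios this close to 1 were not particular to the 3 genes. Over 584 genes, the tRNA genes C48C5.t2 and Y43D4A.t1 had ranks most like those of rpr-1 in the 2 samples, with summed differences in log10 rank of 0.0117 and 0.0330. For mrpr-1 they were the tRNA genes K12H4.t1 and H08J11.t5, at 0.00729 and 0.0112, and for yrn-1 the tRNA genes F36D4.t2 and F27D4.t1, at 0.0117 and 0.0119. Likeness here is in peak rank alone.

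**Figure D3:**
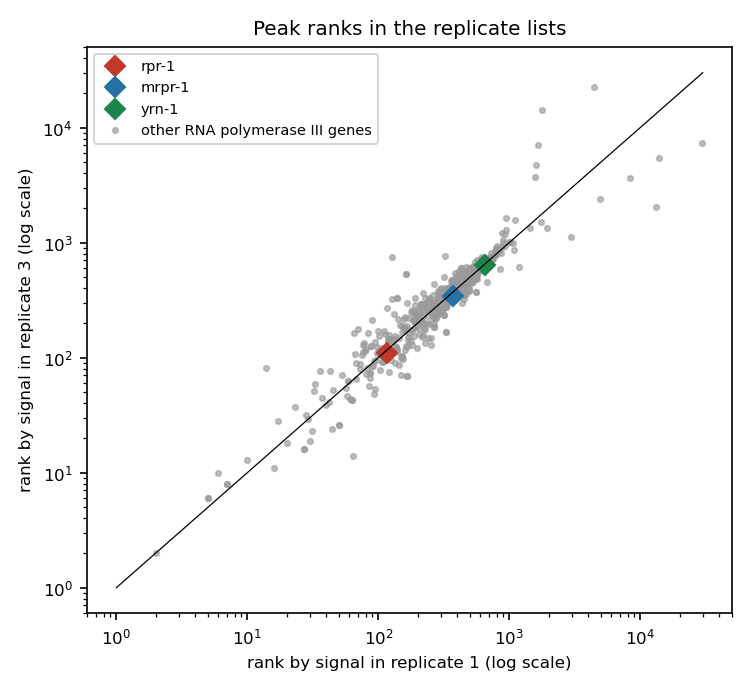
Rank by signal in replicate 1 and in replicate 3 (log scales, rank 1 is strongest) of RNA polymerase III genes with a peak in both. Diamonds are rpr-1, mrpr-1 and yrn-1, grey points are the other genes and the line marks equal ranks. The 3 diamonds lie close to the line, at ranks 116 and 109, 371 and 342, and 649 and 634.

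Other peaks around each gene were weak. Within 5 kb of rpr-1 the pooled list held 3 other peaks, at 1050, 2747 and 4685 bp, with signals of 18.3, 18.98 and 9.50, all inside ints-8 and none in the IDR list. The first of them lay near the 5′ end of the shorter ints-8 transcript, which is 891 bp from the first base of rpr-1. Replicate 1 had a peak there too, at 1085 bp with a signal of 8.50 and rank 15617, and replicate 3 had none. At the main ints-8 promoter the pooled list had a peak of 16.4 at rank 12992, and no IDR peak was present. Both replicates had a peak there, with a signal of 8.31 at rank 16002 in replicate 1 and of 14.7 at rank 2943 in replicate 3. A summit in the promoter window is common in the long lists: 26.3% of protein-coding genes had one in the pooled list, 25.5% in replicate 1 and 25.7% in replicate 3.

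Near mrpr-1 the other peaks had pooled signals of 17.95, 12.2 and 9.18, those of replicate 1 were 6.53 and 12.7 and those of replicate 3 were 6.41, 13.6 and 10.1. All were far below the mrpr-1 peak of the same list. Near yrn-1 the pooled list and that of replicate 1 held no peak within 5 kb besides the main one. Replicate 3 had peaks at offsets of -2060, -682 and 1795 bp from the 5′ end of yrn-1, with signals of 7.62, 7.50 and 5.49, besides the narrow one of 15.6 described above. The last of these was the only promoter peak of the host gene F55G1.15 in the 4 lists. The nearest genes that do not overlap yrn-1 were egas-4, 1657 bp away, and glt-6, a glutamate transporter gene, 4009 bp away. For rpr-1 they were the piRNA gene 21ur-15556, 3520 bp away, and ndrr-1, 6384 bp away.

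**Figure D4:**
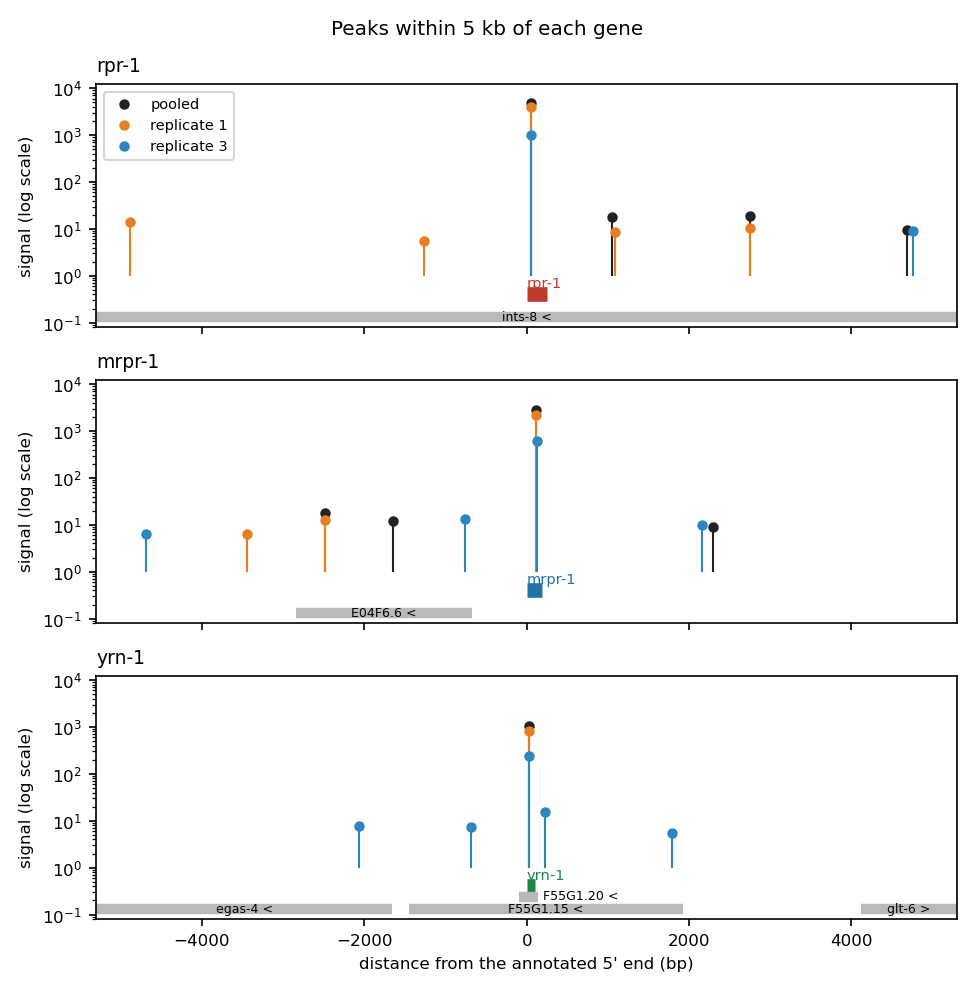
Peak summits within 5 kb of each gene, by distance from its 5′ end in bp, with the signal (log scale) in the pooled, replicate 1 and replicate 3 lists. Coloured blocks are rpr-1, mrpr-1 and yrn-1, grey blocks are neighbouring genes (1 neighbour is not drawn) and the mark beside each name gives its strand. Each gene carried 1 strong peak in each list, and no other peak in view exceeded a signal of 18.98.

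The protein partners of the 3 RNAs were read at their promoters. No list had a promoter peak at popl-1, the gene of the POP1 protein of RNase P and RNase MRP. The gene of the Ro60 protein, rop-1, had one in replicate 1 alone, with a signal of 7.88 and rank 16863. By contrast ssb-1, which encodes the La protein that binds the 3′ ends of RNA polymerase III transcripts, had a peak in all 4 lists. Its signal was 334 at rank 834 in the IDR list, 277 at rank 807 in replicate 1 and 47.2 at rank 931 in replicate 3. The summit lay 408 bp upstream of ssb-1 in the IDR list, and no annotated gene lay within 250 bp of it. Thus 1 of the 3 partner genes had an IDR peak, against 2.97% of protein-coding genes.

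Both upstream words were present at rpr-1, mrpr-1 and yrn-1. The words, shared by these genes and U6 genes, were chosen after the sequences had been read. They are AAC, then 8 bases, then TGTC, starting 75 to 55 bp upstream, and TATA, starting 40 to 20 bp upstream, on the gene's strand. The first word started 66 bp upstream of rpr-1, 68 bp upstream of mrpr-1 and 66 bp upstream of yrn-1. The second word started 30, 34 and 30 bp upstream, so that 21, 19 and 21 bases lay between them. The distance from the start of the second word to the IDR summit was 83 bp at rpr-1, 144 bp at mrpr-1 and 57 bp at yrn-1. The windows of the words were set after the sequences had been read. The like distances of the words therefore follow from that choice and cannot be set against the spread of the summits.

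The 2 words together were found at part of the U6 genes and few others, whereas the first word is also found in further classes. Because the words were chosen after the sequences had been read, the U6 counts are a description and no independent support. Of 22 U6 genes, 12 held both. The first word started 67 bp upstream at 7 of these genes and 66 bp upstream at 5, with 21 bases between the words at 11 of the 12. None of the 612 tRNA genes, 5 signal recognition particle RNA genes and 16 5S rRNA genes held both words. Across 46890 nuclear genes 26 held both (0.0554%), and 14.5% held the TATA word in its window against 0.305% for the first word. With or without the second word, the first stood at 29 of 107 snRNA genes other than U6 (27.1%). It also stood at 35 of 346 snoRNA genes (10.1%), so it is not particular to U6 and the 3 genes. Among 31380 windows of 300 bases from 250 bp upstream to 50 bp into a gene, 3.98% held the first word on either strand and 2.88% both words on the same strand, at any distance. Of the 12 U6 genes with both words 6 were bound in the IDR list, and of the other 10 U6 genes 3 were. Genes with like upstream sequence were thus both in that list and absent from it. Among the absent ones, Y17G9A.85, Y17G9A.90 and K09B11.11 had a peak in the replicate 3 list, where 35.7% of all nuclear genes had one. The lowest signal of a U6 gene in that list was 4.81, and the lowest of the whole list was 4.59. At U6 genes a median of 80.9% of 36-base words occur once in the genome. A match is a description of the letters, and whether a factor binds there was not tested.

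**Figure D5:**
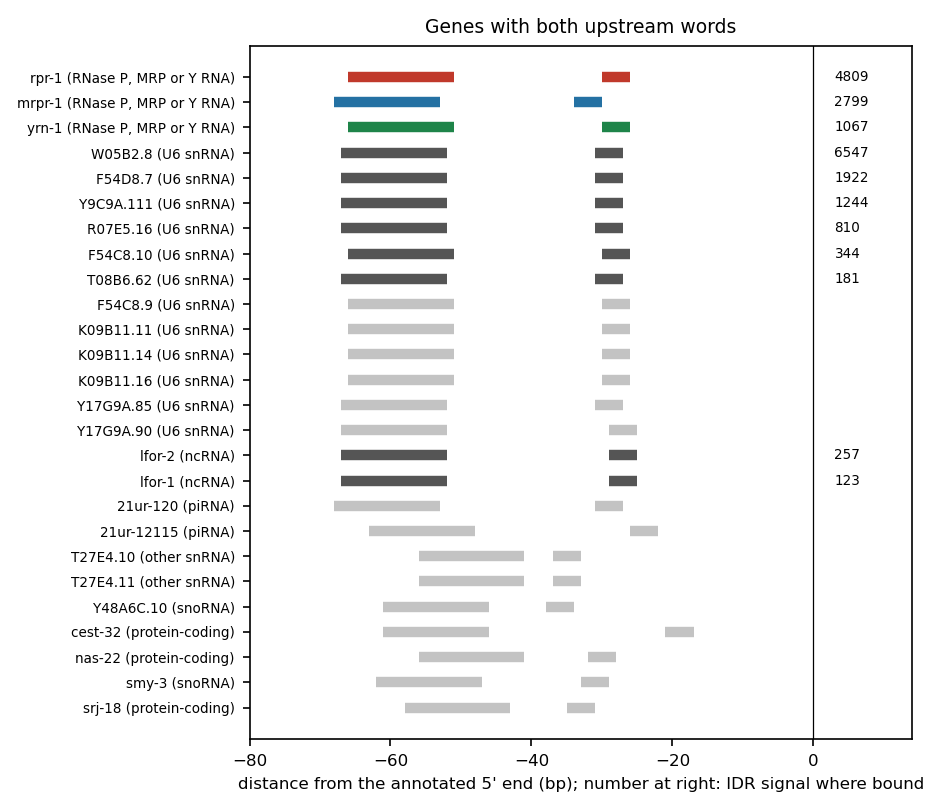
Positions of the first word (left blocks) and the second word (right blocks) upstream of the 26 nuclear genes that hold both, in bp from the annotated 5′ end, with the IDR signal at right. Coloured blocks are rpr-1, mrpr-1 and yrn-1, dark grey blocks are other genes bound in the IDR list and light blocks are genes not bound. The blocks of the 3 genes lie within a few bases of those of the 12 U6 genes.

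Inside the transcribed sequence the genes differed. The exact B-box-like word GTTCNANNC stood once in yrn-1, 63 bp from its first base on the sense strand, and was absent from rpr-1 and mrpr-1 on both strands from 250 bp upstream to 50 bp downstream. It was present on the sense strand of 95.9% of tRNA genes, 1 of 22 U6 genes and none of the srpr genes, against 2.91% of the 5670 nuclear genes of 105 to 253 bp. All 3 genes ended at a run of T: 5 T at rpr-1 and 4 T at mrpr-1, each overlapping the annotated 3′ end, and 4 T at yrn-1, starting 1 base past it. A run of at least 4 T also lay inside mrpr-1, 123 bp from its first base, and inside yrn-1, 45 bp from it, and none lay inside rpr-1. The summits of mrpr-1 and yrn-1 lay 13 and 18 bp before the start of these inner runs in the IDR list. In replicate 3 the order turned at mrpr-1, where the summit, at 128 bp, lay past the run that starts at 123 bp. The GC content was 51.0% in rpr-1, 53.2% in mrpr-1 and 49.5% in yrn-1, whereas in the 100 bp upstream of them it was 69%, 48% and 34%.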

How the data were processed

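Peak lists of 2 samples, biological replicates 1 and 3 of 1 group, were used. Per the notes deposited with the files, the authors called 1 list per sample and 1 on both samples pooled, each with a control alignment, and derived the IDR list from these, on ce11. The deposited signal and the deposited −log10 of the q-value are the authors' own values per peak. The q-value ties at its highest value for 847 IDR peaks, these genes included, so ranks use signal. Which aligner and which peak caller made the lists is not given in the sources used here. Neither the control alignment nor the ce10 lists were analysed here, and depth is unknown.

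Summits were matched to RefSeq WBcel235 genes within 250 bp of the gene body, and where several matched, the strongest was kept. Offsets count from 0 at the gene's first base. U6 genes were those with a conserved core sequence. The matching was tested on simulated peaks, and 200 of 200 were placed rightly. The text names the 3 genes, the srpr genes, hosts and neighbours, the 2 genes nearest each in rank, and the partners popl-1, rop-1 and ssb-1. Results for 1 neighbouring gene are not reported here. The U6 genes whose sequences are printed were chosen after their values were seen. The genes and lists were chosen with earlier results of these data known. No test was made, since 2 samples of 1 group allow no comparison between groups. Alternatives were other distances, interval overlap, the upper 930 IDR peaks, other lists, single replicates, and other motif settings. Python 3.11.15, pandas 2.3.3, numpy 2.4.6, scipy 1.17.1, pysam 0.24.0 and matplotlib 3.10.9 were used.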

Additional observations from a re-analysis of the deposited data

How the results depend on the processing

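The count of bound genes stayed at 3 with 100 or 500 bp, with interval overlap, in the upper 930 peaks, in the pooled list, without replicate 1 and without replicate 3, and with the Ensembl annotation, which was added after seeing the data. Taking the middle of the interval in place of the summit placed the peaks at 129 bp in rpr-1, 139 bp in mrpr-1 and 104 bp in yrn-1, against 53, 110 and 27 bp. Leaving out 1 replicate at a time put the summit at 51 to 53 bp in rpr-1, 110 to 128 bp in mrpr-1 and 27 bp in yrn-1. Ranked by −log10 q, each gene had rank 1 through ties. By signal in single replicates the list rank was 109 to 116 at rpr-1, 342 to 371 at mrpr-1 and 634 to 649 at yrn-1, against 126, 360 and 639. Among RNA polymerase III genes it was 75 to 84 at rpr-1, 273 to 313 at mrpr-1 and 500 to 519 at yrn-1. Among those that are not tRNA genes the ranks were 3, 6 and 10 of 19. Matches to the B-box-like word were counted on both strands from 250 bp upstream to 50 bp downstream. With at most 1 mismatch they numbered 6 at rpr-1, 2 at mrpr-1 and 5 at yrn-1. They numbered 0, 0 and 1 with no mismatch, and 2 at each gene within the gene body with at most 1. At that setting 44.2% of the 5670 nuclear genes of 105 to 253 bp held a match on the sense strand of the body alone, so such matches are common. Both upstream words stayed at all 3 genes under the 3 alternatives added after seeing the data, while other genes with both, U6 genes aside, numbered 11 as reported, 86 anywhere in 100 bp, 253 with 1 mismatch and 2 with TATATA. The order of the 3 genes by signal was the same in every list. The B-box-like matches at rpr-1 and mrpr-1, however, were lost with no mismatch allowed. In replicate 3 alone the mrpr-1 ratio to the tRNA median passed 1 (1.07) and its upstream arm exceeded its downstream arm (265 and 255 bp). The cause of the shifts between lists was not tested. No paired analysis was possible because there was 1 group. Depth, and so the precision of each signal, is unknown, and 2 samples give a range and no error.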

Other observations

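Outside the 3 genes and the U6 genes, 11 nuclear genes held both upstream words. Of these, 2 were bound in the IDR list, against 5.16% of all nuclear genes. The 2 bound ones were the neighbouring non-coding RNA genes lfor-1 (II:14635795-14636093, minus strand) and lfor-2 (II:14641314-14641615, minus strand), singled out after their values were seen. The IDR signal was 123 at lfor-1 and 257 at lfor-2, with ranks 1090 and 892. Both genes had a peak in each replicate, where 29.5% (replicate 1) and 35.7% (replicate 3) of all nuclear genes had one. The first word started 67 bp upstream of both genes with 23 bases before the second word. The summits lay 285 and 290 bp from the first base, near the annotated 3′ ends. Whether these genes are transcribed by RNA polymerase III was not tested.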
